A study of Mus musculus with 6 samples.

Results

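Erythroid and haem synthesis genes are 41 listed genes that serve the making of red blood cells: globins, enzymes and carriers of haem synthesis, erythroid transcription factors, receptors, and proteins of the red cell membrane. They were chosen by name, with earlier results of these data known. Of the 41, 33 had an array entry of their own among the 14860 genes measured. All 4 globin genes, the alpha globin chaperone Ahsp, Xk, Car1 and Tspo2 were not analysed here, in the cases of Hbb-b1, Hbb-b2 and Xk because their entry also stands for other genes. No filter on low signal was applied, so all 33 were tested.

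Spleen cells were enriched with magnetic beads against the surface protein Sca-1, and the RNA of each mouse was read on its own Affymetrix exon array. All 6 mice, controls included, carried both transgenes, as NRASD12/BCL-2 double transgenic mice of FVB/N background, and model acute myeloid leukaemia. The 3 control mice were untreated per the series description. The 3 treated mice were given 75 mg/kg of ABT-737, an inhibitor of BCL-2, BCL-XL and BCL-W, on a schedule of 3 doses a week that ran for 33 days. The sources used here do not give the ages of the mice, the promoters that drive the transgenes or any vehicle for the controls.

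Red cells arise from progenitors that respond to erythropoietin and are steered by GATA1 and KLF1, and in mice the spleen is a site of this process, above all under stress. Haem is built in a chain of steps that begins and ends in the mitochondrion, from ALA synthase to ferrochelatase, which inserts iron. As erythroblasts mature they turn on erythroid ALA synthase, band 3 and a spectrin skeleton under the membrane, and lose their nucleus.

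The stretches before the start sites of 4 of the listed genes are shown as examples, with matches to 3 motifs known from erythroid promoters in capitals. For GATA factors the search, on both strands, took AGATAA and its variant with a final G, AGATAG, and the same pair with a leading T, as TGATAA or as TGATAG. For KLF factors it took CACCC, and for NF-E2 the core TGAGTCA. The sequences are the 250 bases before the start, 5′ to 3′ along the gene, from RefSeq on GRCm38.p6. Klf1 lies at chr8:84901732-84901981 on the plus strand, Alas2 at chrX:150547167-150547416 on the plus strand, Rhag at chr17:40810899-40811148 on the plus strand and Kel at chr6:41704326-41704575 on the minus strand.
Klf1: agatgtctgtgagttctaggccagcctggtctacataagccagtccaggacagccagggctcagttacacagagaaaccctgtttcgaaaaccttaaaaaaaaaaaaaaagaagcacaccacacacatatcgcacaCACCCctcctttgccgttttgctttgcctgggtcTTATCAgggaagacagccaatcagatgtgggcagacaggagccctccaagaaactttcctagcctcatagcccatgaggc
Alas2: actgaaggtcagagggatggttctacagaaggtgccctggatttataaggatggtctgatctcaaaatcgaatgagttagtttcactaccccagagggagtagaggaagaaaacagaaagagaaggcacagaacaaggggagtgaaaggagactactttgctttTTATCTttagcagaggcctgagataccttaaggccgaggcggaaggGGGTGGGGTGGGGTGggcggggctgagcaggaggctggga
Rhag: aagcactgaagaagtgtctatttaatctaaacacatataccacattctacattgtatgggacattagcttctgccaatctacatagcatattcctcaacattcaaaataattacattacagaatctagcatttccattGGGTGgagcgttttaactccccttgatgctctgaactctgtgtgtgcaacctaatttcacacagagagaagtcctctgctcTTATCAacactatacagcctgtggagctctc
Kel: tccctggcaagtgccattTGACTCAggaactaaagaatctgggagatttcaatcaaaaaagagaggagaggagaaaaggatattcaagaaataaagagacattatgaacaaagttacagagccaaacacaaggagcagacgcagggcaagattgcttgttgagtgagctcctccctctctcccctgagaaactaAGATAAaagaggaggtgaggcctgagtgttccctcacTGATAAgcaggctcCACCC
In these stretches Klf1, Alas2 and Rhag each held 1 GATA match, and Kel held 2. The KLF motif had 3 adjoining matches in Alas2, as GGGTG on the printed strand, and 1 in each of the other promoters. Kel alone of these held the NF-E2 core, on the strand not printed. Promoter windows of 300 bases, which reach 50 bases past the start, were found for 26 of the 33 measured genes. A GATA match lay in at least 1 window of 16 of them, 61.5%, against 33.0% of 27025 genes with a window. A KLF match lay in 21, 80.8%, against 59.8% of genes, and the NF-E2 core in 2, 7.69%, against 5.95%. The printed genes all hold both a GATA and a KLF match, which not every listed gene does. The window of Gata1 held 0 GATA matches. That of Cpox held 3 and 1 window of Uros held 2, though both genes had lower means in the treated mice. These shares describe letters and were not tested, and a match is not a bound site. Any link between motifs and the values was not tested.

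Values are the authors' log2 signals, on which a step of 1 is a doubling. Array medians ran from 6.86 to 7.14, and correlations between arrays over all rows ran from 0.970 to 0.988. Ly6a, which encodes Sca-1, was not analysed here. Of 13 listed stem and progenitor markers 12 were measured, among them Kit at 7.83 to 8.46 and Cd34 at 8.89 to 10.25. Markers of B cells and of the granulocyte line gave signal too, such as Cd79a at 12.69 to 13.49 and Elane at 12.22 to 13.23. The selected cells were thus a mixture by their markers. In RNA from a mixture, fewer cells of a type and less RNA per cell cannot be told apart.

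The comparison asked how these genes differed after ABT-737. Mean signals were higher in the treated mice for 30 of the 33 genes, with a median difference of 0.52 log2 (1.44-fold), while 44.0% of all genes had higher means and their median difference was -0.02. By role, membrane genes had a median of 1.02 (2.03-fold), and transcription factors stood at 0.64, other erythroid proteins at 0.81, haem synthesis enzymes at 0.38, mitochondrial carriers at 0.23 and receptors at 0.20. The 3 genes with lower means were Uros at -0.01, Cpox at -0.08 and the mitochondrial transporter Abcb10 at -0.21. Differences of at least 2-fold were found for 9 of the 33, all higher, against 1.48% of all genes.

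None of the 33 differences passed limma's adjusted threshold of 0.05 over all genes, and the smallest adjusted p among them was 0.394. Of all genes 0.0% passed. At an unadjusted p under 0.05 by limma, 2 of the 33 were higher, Nfe2 and Ank1, and 0 were lower. The background was 5.75% of all genes higher and 4.45% lower at that threshold, so this count lay near it. The 95% intervals of 31 of the 33 differences held 0.

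Values varied widely among the treated mice. Treated mice 2 and 3 both lay above all controls in 27 of the 33 genes, against 16.2% of all genes. Treated mouse 1 lay below all controls in 23, against 37.6% of all genes, and above all controls in 3, against 17.0%. Treated mouse 1 below and treated mice 2 and 3 above all controls held at once in 20 of the 33, against 3.46% of all genes. This order was picked out from these same values. All these counts rest on the same 3 treated mice, and the genes are not replicates. Relative to the control mean, the 33 genes ran from -1.32 to 0.43 in treated mouse 1 (median -0.33), from -0.13 to 2.38 in treated mouse 2 (median 0.65) and from 0.01 to 2.90 in treated mouse 3 (median 1.29). The SD was larger among treated than among control mice in 30 of 33 genes, against 58.9% of all genes, with a median SD of 0.85 in the treated and 0.22 in the control mice.

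**Figure D1:**
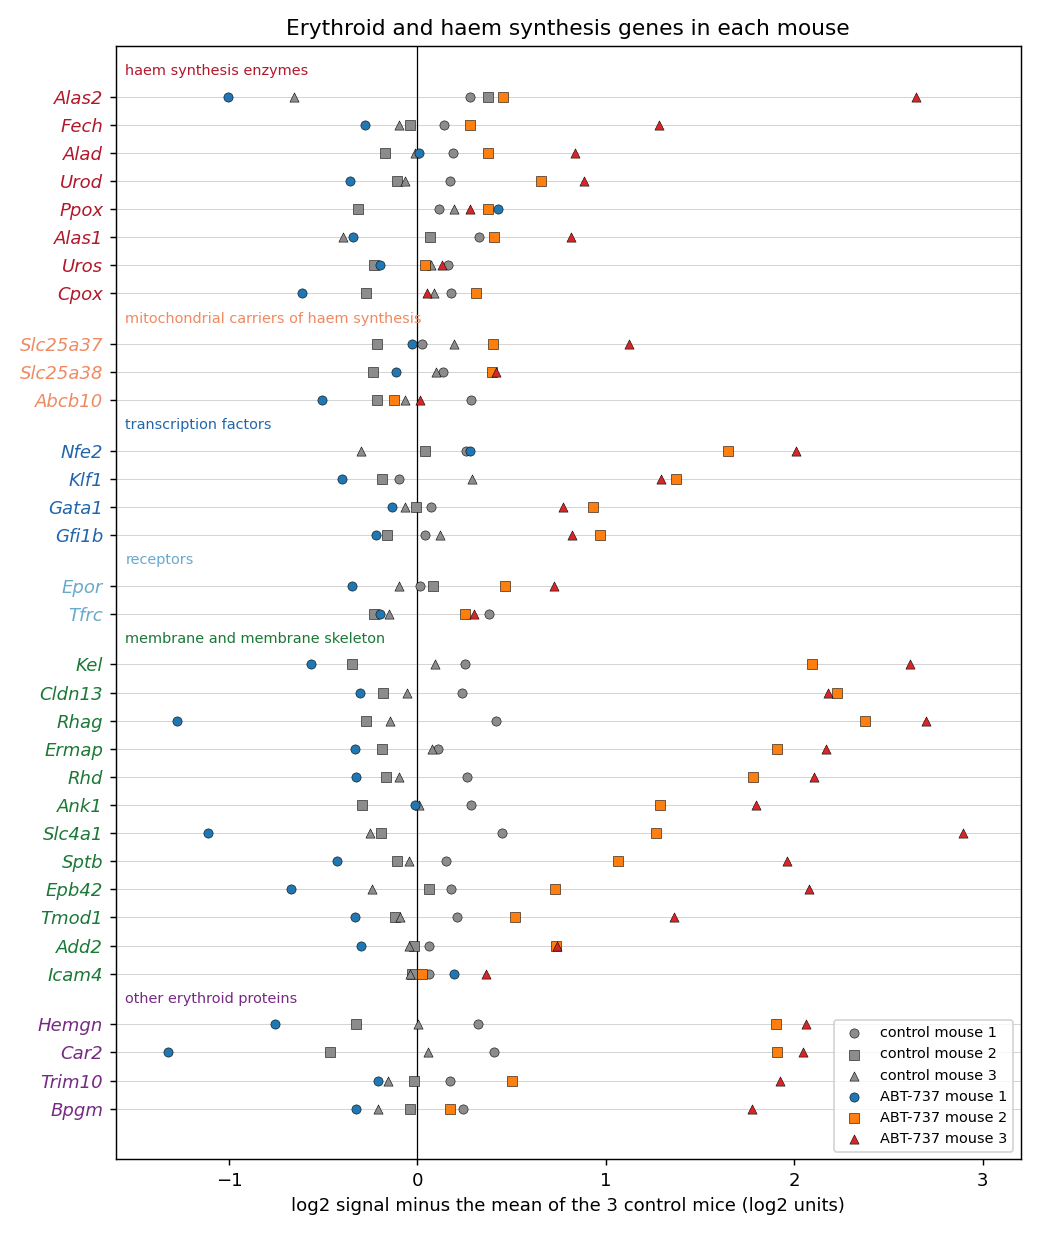
Log2 signal of each of the 33 genes in each mouse minus the mean of the 3 controls, by role. Grey marks are controls and coloured marks treated mice. Treated mouse 1 (blue) lies below all controls in 23 genes, and treated mice 2 and 3 (orange and red) lie above all controls in 27.

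Leaving out 1 mouse at a time changed what passed. Without treated mouse 1, 15 of the 33 genes passed the adjusted threshold, all higher, against 3.08% of all genes that passed as higher, and the median difference was 0.94. Without treated mouse 3 the median was 0.19, with 0 genes passing. In the other 4 omissions 0 passed, and the median lay between 0.49 and 0.62. The animal number in the title of treated mouse 1 is far from those of the other 5 mice, and the labels do not say what these numbers stand for. The fits without a mouse are smaller fits and not a corrected result.

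Among the haem synthesis enzymes, 6 of 8 had higher means and 0 passed. Alas2, the erythroid ALA synthase that sets the pace of haem synthesis in red cell precursors, stood at 8.91, 9.01 and 7.98 in control mice 1, 2 and 3 and at 7.63, 9.09 and 11.28 in treated mice 1, 2 and 3. Treated mouse 3 stood far above all others, treated mouse 2 just above the highest control, and treated mouse 1 below the lowest. The difference was 0.70 (SE 0.83; adjusted p = 0.841 by limma), and it turned to -0.27 without treated mouse 3.

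Alas1, the form used by most tissues, stood at 10.23, 9.97 and 9.51 in the controls and 9.56, 10.31 and 10.72 in the treated mice, a smaller spread in the same order among the treated. Its difference was 0.29 (SE 0.31; adjusted p = 0.814 by limma). Thus the spread among treated mice was an SD of 1.84 for Alas2 and 0.59 for Alas1, against 0.57 and 0.36 in the controls.

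Ppox, which oxidises protoporphyrinogen in the mitochondrion, was the only haem enzyme whose groups did not overlap. It stood at 8.53, 8.10 and 8.61 in the controls and at 8.84, 8.79 and 8.69 in the treated mice, so treated mouse 1 was its highest value. Its difference was 0.36 (SE 0.16; adjusted p = 0.501 by limma). Every treated mouse exceeded every control in 2 of the 33 genes, Ppox and Nfe2, or 6.06%, near the 6.14% of all genes. Every treated mouse lay under every control in 0, against 7.19%.

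Alad, which makes the pyrrole unit of haem in the cytosol, stood at 10.53, 10.17 and 10.33 in the controls and 10.35, 10.72 and 11.18 in the treated mice. Urod, a later cytosolic enzyme of the chain, stood at 9.03, 8.75 and 8.79 in the controls and 8.50, 9.51 and 9.74 in the treated mice. In both genes treated mice 2 and 3 exceeded every control and treated mouse 1 did not. Differences were 0.41 for Alad (SE 0.22; adjusted p = 0.592 by limma) and 0.39 for Urod (SE 0.31; adjusted p = 0.743 by limma).

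Fech, the ferrochelatase that ends the chain, had its mice in nearly the order of Alas2, with 8.52, 8.34 and 8.28 in the controls and 8.10, 8.66 and 9.66 in the treated mice. Uros and Cpox, enzymes of middle steps, had means of 7.52 and 8.03 in the treated mice against 7.53 and 8.11 in the controls, and for Cpox treated mouse 1 lay below every control. Their 95% intervals were -0.36 to 0.34 for Uros and -0.67 to 0.50 for Cpox. Differences anywhere within those bounds were compatible with these 6 arrays.

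The mitochondrial carriers gave small differences and 0 of 3 passed. Slc25a37, mitoferrin 1, which brings iron into the mitochondrion, stood at 9.76, 9.52 and 9.93 in the controls and 9.71, 10.14 and 10.86 in the treated mice (difference 0.50, SE 0.28; adjusted p = 0.617 by limma). Slc25a38, which carries glycine for ALA synthesis, stood at 9.73, 9.36 and 9.69 in the controls and 9.48, 9.99 and 10.01 in the treated mice (0.23, SE 0.18; adjusted p = 0.743 by limma). Both were above all controls in treated mice 2 and 3 and within the controls in treated mouse 1. Abcb10, an inner membrane transporter needed for haem synthesis in mouse erythroid cells, stood at 8.11, 7.61 and 7.76 in the controls and 7.32, 7.70 and 7.84 in the treated mice (-0.21, SE 0.19; adjusted p = 0.775 by limma). Its values in treated mice 2 and 3 lay inside the range of the controls.

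All 4 transcription factors had higher means. Nfe2, the erythroid subunit of NF-E2, stood at 8.83, 8.61 and 8.27 in the controls and 8.85, 10.22 and 10.58 in the treated mice. The groups did not overlap, but treated mouse 1 was only just above the highest control. Its difference of 1.31 (2.49-fold, SE 0.42; adjusted p = 0.394 by limma) came to 0.97 when treated mouse 3 was left out and 1.83 when treated mouse 1 was. Nfe2 is also used by megakaryocytes.

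Klf1, which switches on beta globin and many other red cell genes, stood at 6.27, 6.18 and 6.66 in the controls and 5.97, 7.74 and 7.66 in the treated mice. Gata1, the master factor of red cells, megakaryocytes and mast cells, stood at 6.48, 6.40 and 6.34 in the controls and 6.27, 7.34 and 7.18 in the treated mice. Gfi1b, a repressor needed for erythroid and megakaryocyte maturation, stood at 7.41, 7.21 and 7.49 in the controls and 7.15, 8.34 and 8.19 in the treated mice. In all of these, treated mouse 1 was the lowest of the 6 mice, and treated mice 2 and 3 were the highest and close to each other. Differences were 0.75 for Klf1 (SE 0.45; adjusted p = 0.645 by limma), 0.52 for Gata1 (SE 0.27; adjusted p = 0.573) and 0.52 for Gfi1b (SE 0.30; adjusted p = 0.626).

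Of the 2 receptors, 0 passed. Epor, the erythropoietin receptor, stood at 6.51, 6.58 and 6.40 in the controls and 6.15, 6.96 and 7.22 in the treated mice (0.28, SE 0.26; adjusted p = 0.782 by limma). Tfrc, the transferrin receptor that takes up iron and is also used by other dividing cells, stood at 9.87, 9.26 and 9.34 in the controls and 9.29, 9.74 and 9.79 in the treated mice (0.12, SE 0.21; adjusted p = 0.904 by limma). For Epor treated mouse 1 was the lowest of the 6 mice and treated mice 2 and 3 were above all controls, while no treated mouse left the control range for Tfrc.

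**Figure D2:**
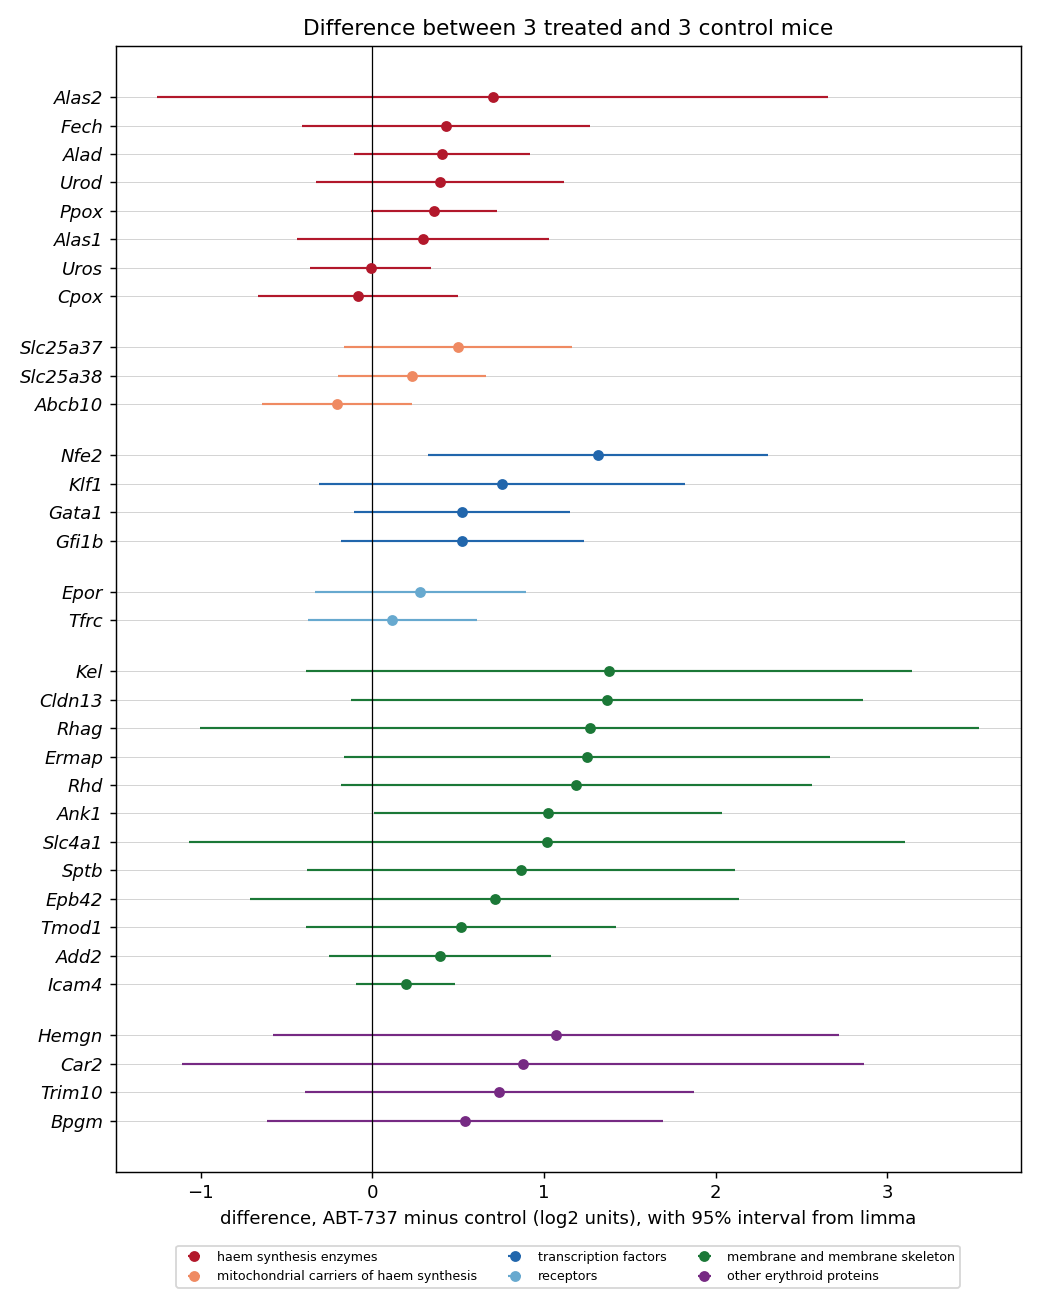
Difference between the means of 3 treated and 3 control mice for each of the 33 genes (points, log2 units) with limma's 95% interval (bars), coloured by role. Intervals of 31 genes hold 0, those of Nfe2 and Ank1 do not, and no gene passed after adjustment.

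Membrane and membrane skeleton genes were all higher on average, 12 of 12 measured. Of these 7 were higher by at least 2-fold, against 1.48% of all genes. Ank1, the ankyrin that ties band 3 to spectrin, stood at 7.27, 6.69 and 6.99 in the controls and 6.97, 8.27 and 8.78 in the treated mice. Its difference was 1.02 (SE 0.43; adjusted p = 0.484 by limma), and treated mouse 1 lay within the controls.

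Cldn13, a claudin found in mouse erythroid tissue, stood at 6.10, 5.68 and 5.81 in the controls and 5.56, 8.09 and 8.04 in the treated mice. Ermap, a red cell membrane protein that carries a blood group in humans, stood at 6.63, 6.33 and 6.60 in the controls and 6.19, 8.43 and 8.69 in the treated mice. Treated mice 2 and 3 were thus over 3-fold above every control in both genes, while treated mouse 1 was the lowest of all mice. Differences were 1.37 for Cldn13 (SE 0.64; adjusted p = 0.527 by limma) and 1.25 for Ermap (SE 0.60; adjusted p = 0.544).

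Slc4a1, band 3, the anion exchanger that is the main protein of the red cell membrane, stood at 9.40, 8.76 and 8.70 in the controls and 7.84, 10.22 and 11.85 in the treated mice. From the lowest to the highest treated mouse the range was thus wider than the controls' by far, and the difference of 1.02 carried an SE of 0.89 (adjusted p = 0.767 by limma). Rhag, the Rh-associated glycoprotein, had the largest SD among treated mice of the 33 genes, 2.21, against 0.37 in the controls, with values of 5.44, 9.09 and 9.41 in the treated and 7.13, 6.44 and 6.57 in the control mice.

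Kel, the Kell blood group protein, had the highest mean difference, 1.38 (SE 0.75; adjusted p = 0.603 by limma), with 5.61, 8.27 and 8.79 in the treated and 6.43, 5.83 and 6.27 in the control mice. The remaining members were Rhd, the Rh blood group protein, at 1.19, Sptb, the beta spectrin of red cells, at 0.87, Epb42, which binds band 3, at 0.71, Tmod1, which caps actin filaments, at 0.52, Add2, beta adducin, at 0.39, and Icam4, an adhesion protein of erythroblasts, at 0.19. In 10 of 12 membrane genes treated mouse 1 lay below and treated mice 2 and 3 above all controls, against 3.46% of all genes. The exceptions were Ank1 and Icam4, and this order was picked out from these same values. Icam4 had treated mouse 2 inside the control range, at 6.49 against 6.43 to 6.53.

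Other erythroid proteins were higher on average in 4 of 4, with 0 passing. Trim10, needed for terminal erythroid maturation, stood at 6.29, 6.10 and 5.96 in the controls and 5.91, 6.62 and 8.04 in the treated mice (0.74, SE 0.48; adjusted p = 0.676 by limma). Hemgn, hemogen, a nuclear protein of blood progenitors and erythroblasts, stood at 7.30, 6.65 and 6.98 in the controls and 6.22, 8.88 and 9.04 in the treated mice (1.07, SE 0.70; adjusted p = 0.680 by limma). Bpgm, which makes the bisphosphoglycerate that lowers the oxygen affinity of haemoglobin, stood at 7.83, 7.55 and 7.38 in the controls and 7.26, 7.76 and 9.36 in the treated mice (0.54, SE 0.49; adjusted p = 0.776 by limma). Hemgn was high in treated mice 2 and 3 alike, and Bpgm in treated mouse 3 alone, without which its difference was -0.08. Car2, a carbonic anhydrase of red cells and other tissues, stood at 7.74, 10.97 and 11.11 in the treated and 9.47, 8.60 and 9.12 in the control mice.

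Treated mice 2 and 3 also differed from each other by gene. Klf1, Gata1, Gfi1b, Cldn13, Add2, Car2, Hemgn, Slc25a38, Tfrc, Uros, Ppox and Abcb10 differed by no more than 0.16 between these mice. The median absolute difference over all genes was 0.21. Klf1, Gata1, Gfi1b, Cldn13, Ppox and Cpox were slightly higher in treated mouse 2. Treated mouse 3 exceeded treated mouse 2 by 2.19 for Alas2, 1.63 for Slc4a1, 1.60 for Bpgm, 1.42 for Trim10, 1.35 for Epb42, and Fech was 2-fold higher there. These are the 6 of the 33 genes with at least 2-fold more signal in treated mouse 3, against 0.525% of all genes. The median of this difference was -0.12 over the 4 transcription factors, 0.14 over the 3 carriers and 0.155 over the 2 receptors. It was 0.32 over the 8 haem enzymes, 0.42 over the 12 membrane genes and 0.79 over the 4 other erythroid proteins. Over all genes it was 0.01. Each value compares 1 array with 1 array and has no replicate, and the grouping was seen in the data before it was described.

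**Figure D3:**
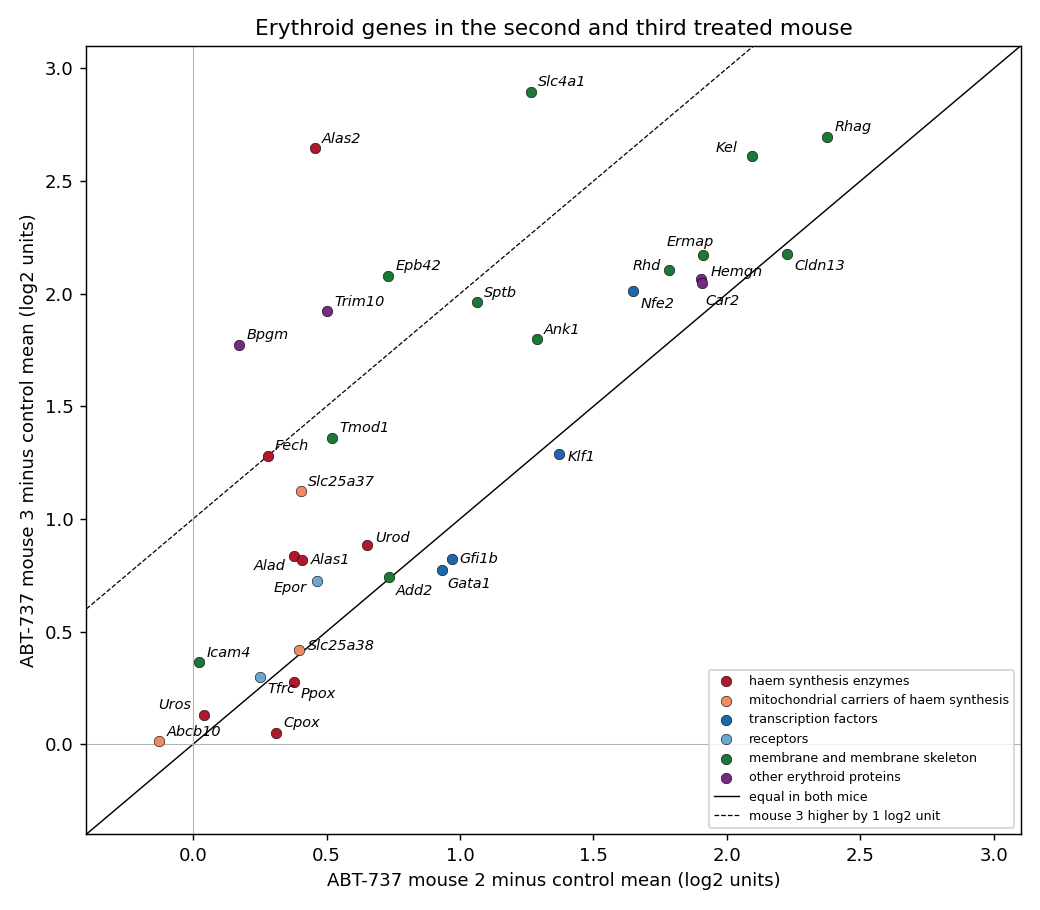
Each of the 33 genes placed by its log2 signal minus the control mean in treated mouse 2 (horizontal) and treated mouse 3 (vertical), coloured by role. The solid line marks equal values and the dashed line 1 log2 unit more in treated mouse 3, on or above which lie Alas2, Slc4a1, Bpgm, Trim10, Epb42 and Fech.

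Beyond the 33, a list of 45 other genes of red cell formation had 36 measured, of which 25 had higher and 11 lower means, with a median difference of 0.19. By limma 0 passed after adjustment, and 6 were higher and 0 lower at an unadjusted p under 0.05, against 5.75% and 4.45% of all genes. The smallest p values belonged to Bnip3l, which clears mitochondria from reticulocytes, at 0.51 (SE 0.13; adjusted p = 0.330), Add1, alpha adducin, at 0.50 (SE 0.14; adjusted p = 0.334), and Slc14a1, the red cell urea transporter, at 0.76 (SE 0.22; adjusted p = 0.367). All of these were above every control in all treated mice, treated mouse 1 included. That held for 5 of the 36, against 6.14% of all genes, and the genes named were picked by their small p. The order with treated mouse 1 below and treated mice 2 and 3 above all controls was seen in 8 of the 36, against 3.46% of all genes. Chosen after their values were seen, Aqp1, the red cell water channel, is an example, at 6.71, 6.54 and 6.65 in the controls and 6.05, 8.28 and 8.43 in the treated mice.

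Markers of other cells also varied between the mice, but not all in the order or direction of the erythroid genes. Averaged over the 33 erythroid genes, treated mouse 1 stood at -0.37 from the control mean, treated mouse 2 at 0.90 and treated mouse 3 at 1.37, while the control mice stood at 0.20, -0.14 and -0.06. Granulocyte markers, 15 of 15 measured and 11 with higher means, stood at 0.49, 1.26 and 1.48 in the treated mice on the same scale. Treated mouse 1 lay above all controls in 8 of these 15 markers, such as Mmp9, against 17.0% of all genes. It lay below all controls in 4, Mpo, Elane, Prtn3 and Ctsg, which are proteins of primary granules, against 37.6%. The mean log2 level of the 15 granulocyte markers ran from 10.82 to 11.67 in the controls and from 11.84 to 12.84 in the treated mice. B cell markers, 9 of 10 measured and 9 with lower means, stood at 0.06, -1.06 and -0.88, and their mean level ran from 11.55 to 12.02 in the controls and from 10.75 to 11.87 in the treated mice.

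Mitosis genes, 12 of 13 measured, stood at -0.97, 0.20 and 0.02 in treated mice 1, 2 and 3. In treated mouse 1 all 12 lay below every control, against 37.6% of all genes. The mean level of the mitosis genes ran from 9.94 to 10.41 in the controls and from 9.15 to 10.31 in the treated mice. Megakaryocyte and platelet markers, 10 of 14 measured and 7 with higher means, ran only from 6.81 to 7.16 in the controls and from 6.98 to 7.17 in the treated mice. Macrophage markers, 14 of 14 measured and 12 with higher means, ran from 8.86 to 9.37 and from 9.29 to 9.68. T cell markers, 9 of 11 measured and 2 with higher means, ran from 10.69 to 10.94 and from 10.46 to 10.84, and stem and progenitor markers, 2 of 12 with higher means, from 7.41 to 7.88 and from 7.30 to 7.53. Relative to control means, treated mice 1, 2 and 3 stood at 0.04, 0.22 and 0.23 for megakaryocyte markers. For macrophage markers they stood at 0.22, 0.58 and 0.61. Both lists, like granulocyte markers, had the order of the erythroid genes, but with treated mouse 1 above the control mean. T cell markers stood at 0.03, -0.09 and -0.35 and stem and progenitor markers at -0.35, -0.19 and -0.42, in other orders. The part that any of these lists had in the erythroid values was not tested.

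**Figure D4:**
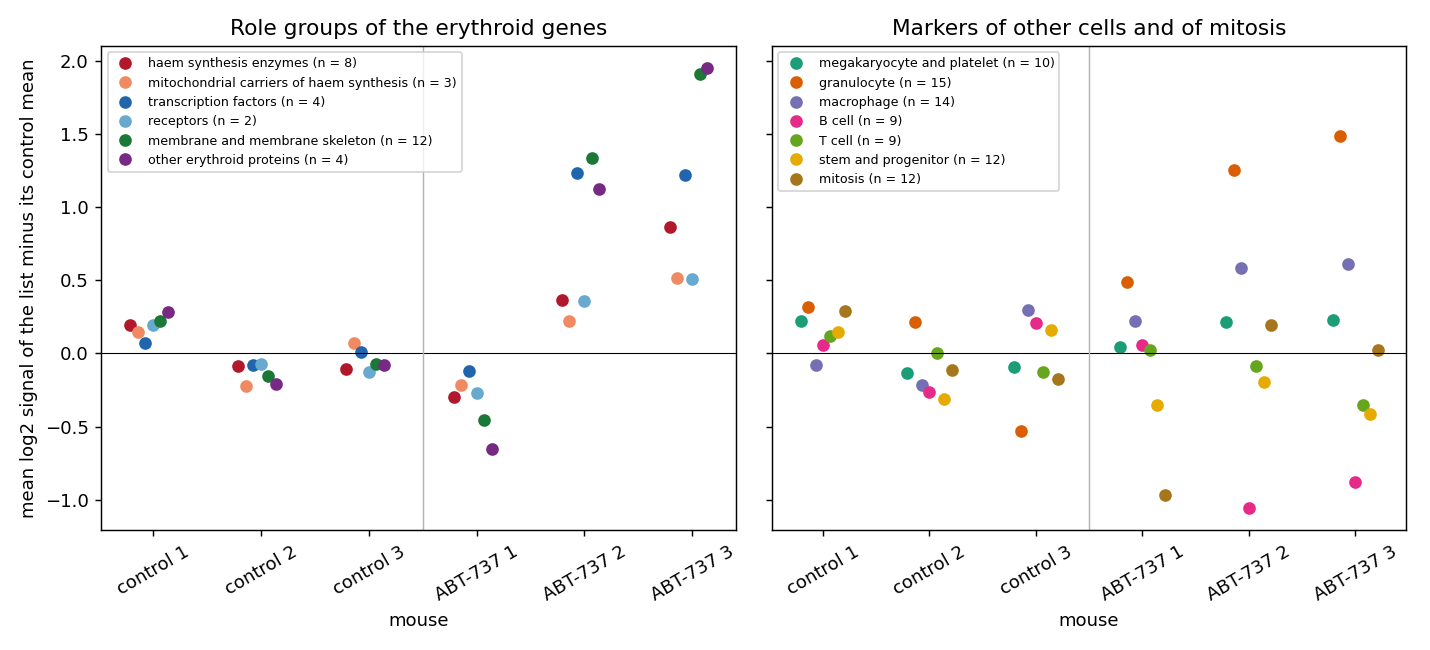
Mean log2 signal of each list in each mouse minus its mean over the 3 controls, for the role groups of the erythroid genes (left) and for markers of other cells and of mitosis (right), with the number of genes in brackets. Treated mouse 1 is below 0 in all 6 role groups and lowest for mitosis, while treated mice 2 and 3 are above 0 in all 6 role groups and lowest for B cell markers.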

How the data were processed

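Per the labels' protocols, total RNA of the bead-sorted spleen cells of 6 mice was biotinylated and read on exon arrays. The authors deposited log2 values from 2.6 to 14.3, a scale read from the values themselves. Genome build mm9 comes from the submitters' processing notes. How the values were normalized, summarised or filtered is not given in the sources used here, and no background signal was used.

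Of 23332 rows, 14996 had 1 gene symbol in the platform annotation, 1019 several and 7317 none. Only rows with 1 symbol were named, and the row with the highest mean was kept for each of 14860 genes. Each of the 33 erythroid genes had a single row.

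Treated minus control differences were fitted over all genes with limma 3.58.1 in R 4.3.3, with Benjamini-Hochberg adjustment and a threshold of 0.05. The fit was tested on simulated data. The replicates are separate mice, numbered in accession order. Every mouse's values were given for the 3 members of each role group with the smallest p and for Alas1, Alas2, Gata1, Klf1, Epor, Tfrc and Slc4a1, and of the other lists of erythroid and iron genes the 3 with the smallest p were named. Other values by mouse, and the marker genes named, were chosen after they were seen. The members and lists were chosen with earlier results of these data known. Promoters are those of RefSeq, GRCm38.p6. Alternatives were quantile normalization, median centring, leaving out the dimmest 30% of genes, array weights, the mean over all rows of a gene, a trended and robust variance, and leaving out each mouse. Figures were drawn with matplotlib 3.10.9.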

Additional observations from a re-analysis of the deposited data

How the results depend on the processing

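With all mice kept, the medians of the erythroid genes and of their 6 measured role groups stayed positive under quantile normalization, median centring, leaving out the dimmest 30% of genes, trended and robust variance, array weights and the mean of rows, and no erythroid gene changed sign under quantile normalization or centring. Centring moved the median of all genes from -0.02 to -0.11. Genes past the adjusted threshold numbered 0, 14 without the dimmest 30%, 2 with array weights, and 0 to 510 when 1 mouse was left out, 510 on omitting treated mouse 1 and 1 on omitting treated mouse 3. Erythroid genes at an unadjusted p under 0.05 numbered 2, 4 without the dimmest 30%, 1 with trended and robust variance, 6 with array weights, and 0 to 26 on leaving out 1 mouse, 26 on omitting treated mouse 1, 0 on omitting treated mouse 3, and 1 on omitting control mouse 1, control mouse 2 or treated mouse 2. Those past the adjusted threshold numbered 0 to 15, and those with higher means 28 to 32. The count of 28, on omitting treated mouse 3, includes Fech, whose difference there was 0 within rounding. Medians on leaving out 1 mouse ran from 0.02 to 0.61 for haem enzymes, 0.12 to 0.41 for carriers, 0.38 to 1.11 for transcription factors, 0.04 to 0.43 for receptors, 0.44 to 1.74 for membrane genes and 0.22 to 1.60 for other proteins. Omitting treated mouse 3 gave the lowest, except for carriers (control mouse 2) and transcription factors (treated mouse 2), and omitting treated mouse 1 gave each highest. Sign changes occurred for Alas2 (-0.27 to 1.55), Uros (-0.125 to 0.085), Cpox (-0.28 to 0.18) and Bpgm (-0.077 to 0.97). The cause of these shifts was not tested beyond the mouse omitted. No globin median could be given. No paired analysis was possible because no number in the labels is shared between the groups. With 6 arrays and no background signal, dim genes could not be told from background.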

Other observations

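Genes of iron handling outside the erythroid lists were also examined. Of 14 listed, 10 were measured, 7 with higher and 3 with lower means, with a median difference of 0.08. By limma 0 passed the adjusted threshold. At an unadjusted p under 0.05 by limma, 4 were higher and 0 lower, against 5.75% and 4.45% of all genes. The smallest p values were those of Hmox1, haem oxygenase 1, which breaks down haem, at 1.13 (SE 0.18; adjusted p = 0.241), Slc40a1, ferroportin, which exports iron, at 1.25 (SE 0.24; adjusted p = 0.245), and Bach1, a haem-sensing repressor, at 0.56 (SE 0.19; adjusted p = 0.404). Hmox1 stood at 9.81, 9.51 and 9.85 in control mice 1, 2 and 3 and at 10.52, 10.92 and 11.12 in treated mice 1, 2 and 3. Treated mouse 1 was the lowest of the treated mice but above every control for Hmox1. Slc40a1 showed the same, at 10.38, 10.47 and 10.87 in the treated mice against a highest control of 9.83. Over the 10 genes, treated mouse 1 lay above all controls in 4, against 17.0% of all genes, and below them in 3, against 37.6%.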
